A study of Homo sapiens with 5 samples.

Results

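Carcinoembryonic antigen-related cell adhesion molecules (CEACAMs) were described through 5 genes of the family, CEACAM1, CEACAM5, CEACAM6, CEACAM7 and CEACAM19, out of 61220 genes with a transcript in the tables. Members were chosen by name, and the reads of all their GENCODE v44 transcripts were summed per gene: 38 of their transcripts were in the tables, among 227751 human transcripts. Messenger RNA of NCI-H1975 and HCC827, 2 established human cell lines from lung adenocarcinoma, was sequenced as PCR-amplified long-read cDNA on a nanopore instrument. The labels name no drug or other agent for either line, both were grown apart to near confluency, and the amplified libraries were size-selected. Their RNA carried the synthetic spike-in transcripts called sequins, mix A for NCI-H1975 and mix B for HCC827, and was combined by mass so that HCC827 made up 0, 25, 50, 75 or 100%. The ratios in the text put NCI-H1975 first, so 100:0 is pure NCI-H1975 and 0:100 pure HCC827, and every ratio had 1 library. A single RNA of each line went into all mixtures, so differences between lines describe these 2 preparations, and scatter along the series is technical.

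CEACAMs are cell surface glycoproteins built from immunoglobulin-like domains that bind each other between neighbouring cells and serve as docking sites for several bacteria. CEACAM5 is carcinoembryonic antigen itself, the serum marker used to follow adenocarcinomas, and CEACAM5, CEACAM6 and CEACAM7 are held in the outer membrane leaflet by a glycosylphosphatidylinositol (GPI) anchor. CEACAM1 crosses the membrane, and alternative splicing gives it either a long cytoplasmic tail with inhibitory tyrosine motifs or a short tail without them. CEACAM19 is a distant transmembrane member.

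The libraries held from 2932250 to 4058751 assigned reads. Of the 8 epithelial marker genes fixed for the lines (EPCAM, KRT7, KRT8, KRT18, KRT19, CDH1, NKX2-1 and NAPSA), 0 were at 0 in all libraries. Their summed level ran from 6504 CPM, the counts-per-million scale by library total, at 100:0 to 14053 at 0:100. Between these libraries NAPSA went from 7 to 690 reads and EPCAM from 1276 to 998. All 5 granulocyte markers, which include CEACAM8 and CEACAM3, were at 0 in every library. The other lists were leukocyte (PTPRC and CD3E at 0), endothelial (at most 1.30 summed CPM) and fibroblast markers. Of the 3 fibroblast markers, DCN was at 0, and the summed level of COL1A1 and COL1A2 ranged from 6.14 CPM at 0:100 to 214 at 100:0. The mean length of transcripts, weighted by their reads, also ran with the mixture, from 2581 bases at 100:0 to 2180 at 0:100, as did the mitochondrial share of reads, from 5.64% to 8.85%. The part of these trends in the results below was not tested.

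HCC827 RNA carried CEACAM6, CEACAM5 and CEACAM1, and NCI-H1975 RNA carried little or none of them. CEACAM19 ran the other way, on few reads, and CEACAM7 was not seen. In RNA from whole cultures, fewer expressing cells and less RNA per cell cannot be told apart. Of the 5 members, 4 had enough reads to test (at least 10 in at least 2 libraries), and all 4 had a slope past the threshold, 3 rising with HCC827 and 1 falling. The 1 that fell, CEACAM19, could be tested only through the libraries where it is high. Of all 13492 genes tested, 45.8% passed in either direction, 23.5% rising and 22.3% falling, so the number of calls is little guide here and the sizes are given instead. Slopes are log2 changes fitted over the whole range of HCC827 mass, from edgeR's quasi-likelihood test with TMM scaling (which sets library scale by the bulk of genes) and Benjamini-Hochberg adjustment over all genes. The median slope of all genes was -0.035, and 2.26% had a slope of 2.5 or more. A mixture is linear in level and curved in its logarithm, so slopes understate the difference of genes nearly absent from 1 line.

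CEACAM6, a GPI-anchored adhesion protein of epithelia and granulocytes, lies on chromosome 19 from 41750977 to 41772211 on the plus strand (ENSG00000086548.9; GRCh38, as are all coordinates). It had 4, 188, 281, 277 and 353 reads from the 100:0 to the 0:100 library. Scaled by library totals, these were 1.36, 46.3, 72.4, 90.03 and 114 CPM. The 100:0 library stood far below the other 4, and the values ran in order along the series. On the TMM scale 28.5% of all genes ran in strict order over the 5 libraries, so order is no particular trait of CEACAM6 or CEACAM5. The slope was 3.26 ± 0.60 (SE; edgeR, adjusted p = 7.70e-04). Between the pure libraries it was 111-fold higher in HCC827 after TMM scaling (exact 95% interval 43.1 to 411, counting error only). All of its 1103 reads were on the protein-coding transcript CEACAM6-201, of 344 residues.

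CEACAM5 (ENSG00000105388.17) lies beside it, from 41708585 to 41730433, also on the plus strand. It had 0, 75, 100, 113 and 130 reads along the series, or 0, 18.5, 25.8, 36.7 and 42.0 CPM. The count of 0 at 100:0 allows up to 1.02 CPM by the limit of 3 reads used here for counts of 0 (1.26 by the exact 95% interval), and the values then ran in order. Its slope was 3.13 ± 0.64 (SE; edgeR, adjusted p = 0.00156). Taking the 0 as 3 reads, the 0:100 level was at least 54.7-fold higher than that at 100:0, and the exact 95% interval of the ratio, which also holds the counting error of the 130 reads, begins at 43.9. The transcript CEACAM5-201, which encodes all 702 residues, held 99.0% of its 418 reads.

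CEACAM1 (ENSG00000079385.23, from 42507304 to 42561234, minus strand) had 4, 18, 17, 26 and 29 reads. These were 1.36, 4.43, 4.38, 8.45 and 9.38 CPM. The 75:25 and 50:50 libraries were level with each other, with overlapping intervals, and lay between the ends. The slope was 2.57 ± 0.54 (SE; edgeR, adjusted p = 0.00178), and the pure libraries differed 9.15-fold (exact 95% interval 3.21 to 35.8). CEACAM1 overlaps the noncoding gene LIPE-AS1 on the opposite strand, whose reads numbered 68 against 94 of CEACAM1. Whether counting used the strand is not given in the sources used here. LIPE-AS1 itself had a slope of 1.202 ± 0.59 (SE; edgeR, adjusted p = 0.110).

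CEACAM19 (ENSG00000186567.14, from 44662278 to 44684359, plus strand) had 12, 11, 4, 1 and 1 reads, from 4.09 to 0.323 CPM. It passed the read minimum only through the 2 libraries richest in NCI-H1975, so a member of this size could be tested only because it differed. Its slope was -3.58 ± 0.96 (SE; edgeR, adjusted p = 0.00842), and it was 9.51-fold lower in the 0:100 library (exact 95% interval 1.41 to 406). It overlaps PVR on the same strand, whose reads went from 485 to 265 (slope -0.56, also called), and the unnamed gene ENSG00000279095, with 129 reads. On the opposite strand it overlaps CEACAM16-AS1, with 14 reads. The split of reads between these genes and CEACAM19 is uncertain. The reads of CEACAM19 were spread over 4 transcripts, with 13 of 29 on CEACAM19-202 and 8 on the retained-intron transcript CEACAM19-203. CEACAM7 (from 41673303 to 41706976, minus strand), a GPI-anchored protein known from colon, had 0 reads in all 5 libraries, which by the same limit of 3 reads allows 0.739 CPM in the deepest and 1.02 in the shallowest.

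**Figure D1:**
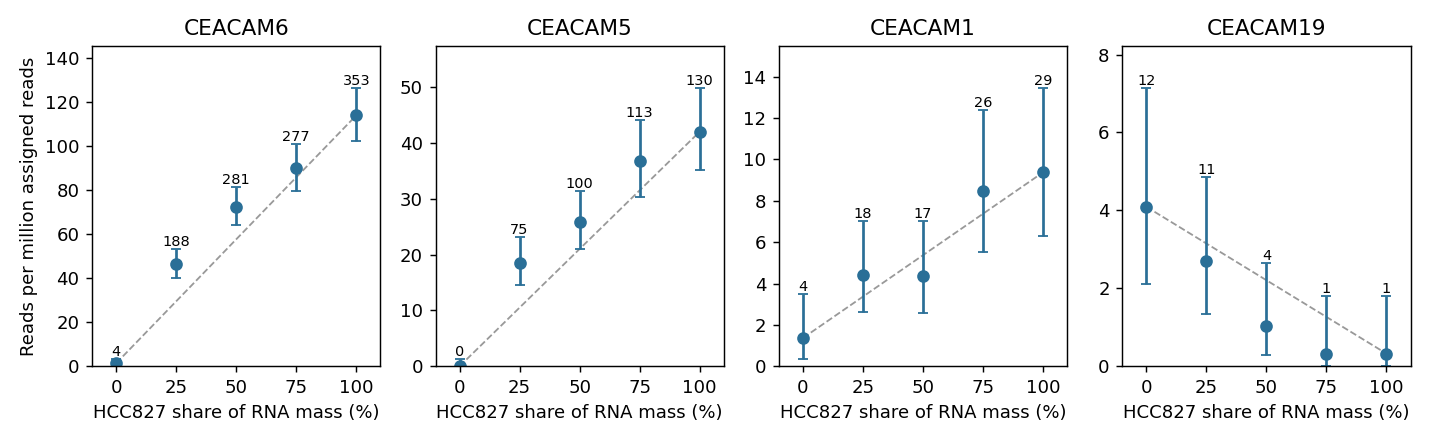
CPM of 4 CEACAM genes against the HCC827 share of RNA mass, 1 library per point; bars are exact 95% Poisson intervals, numbers above them are reads, and the dashed line joins the pure libraries. CEACAM6 and CEACAM5 climb from 4 and 0 reads to 353 and 130, and CEACAM19 falls from 12 reads to 1.

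The calls depended on the test and on the libraries used. With 100:0 and 75:25 set against 25:75 and 0:100, the edgeR adjusted p was 0.0538 for CEACAM1, 0.0978 for CEACAM5 and 0.0948 for CEACAM6, where 17.3% of all genes passed. CEACAM19 met the read minimum through the 2 libraries that formed its high group there, so its adjusted p of 0.0439 in edgeR is no support. Under DESeq2's Wald test CEACAM5 did not pass (slope 4.49, adjusted p = 0.153), while 35.5% of all genes did. CEACAM19 passed that test narrowly (adjusted p = 0.0482), which is no support for the same reason. Without the 100:0 library the slopes of CEACAM5 and CEACAM6 shrank to 2.00 and 2.06 and both still passed, as did 4675 of 13183 genes. CEACAM19 could not be tested without the 100:0 or the 75:25 library. Scaling by library totals moved the median slope of all genes to -0.44 and left the direction and call of CEACAM1, CEACAM5 and CEACAM6 as they were. CEACAM19 also kept both, but its call is no support, since the same 2 libraries let it be tested. Under library totals 1813 genes rose and 5074 fell, against 3169 and 3006 with TMM.

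The mixed libraries were then placed between the pure ones, as the percentage of the way from the 100:0 to the 0:100 level on the TMM scale. CEACAM6 stood at 32.6% (95% Poisson interval of that library 28.0 to 37.7), 54.5% (48.2 to 61.4) and 73.5% (65.0 to 82.8) in the 75:25, 50:50 and 25:75 libraries. CEACAM5 stood at 35.9% (28.3 to 45.1), 53.1% (43.2 to 64.6) and 81.7% (67.3 to 98.2). On this scale both genes lay above the 25% of the mass at 75:25, and at 50:50 and 25:75 their intervals held the mass share. The share of reads from HCC827, estimated from the unscaled reads of 10017 other genes, was 32.7% at 75:25. It belongs to the scale of library totals, so the TMM positions cannot be set against it. On library totals CEACAM6 stood at 39.9% (34.2 to 46.2) and CEACAM5 at 43.96% (34.6 to 55.1) at 75:25, above both shares. At 50:50 the estimated read share was 55.4%. CEACAM6 stood there at 63.0% (55.7 to 71.0), above the mass and narrowly above the read share. CEACAM5 stood at 61.3% (49.9 to 74.6), an interval that held both shares. At 25:75 the intervals of both genes held both shares. On the TMM scale the same position over 212 other genes that rose at least 4-fold, with at least 100 reads at 0:100, had a median of 27.0%, 46.4% and 72.7%. Its quartiles were 23.4 and 30.98 at 75:25. The upper quartile was 52.3 at 50:50 and 77.5 at 25:75. CEACAM6 and CEACAM5 were thus above the upper quartile of those genes at 75:25 and at 50:50. At 25:75 CEACAM5 was above it and CEACAM6 below. All these intervals reach below the upper quartile. CEACAM1 gave 31.1%, 33.2% and 82.3%, with intervals too wide to place it (14.2 to 60.5 at 50:50). The intervals leave out the counting error of the pure libraries.

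**Figure D2:**
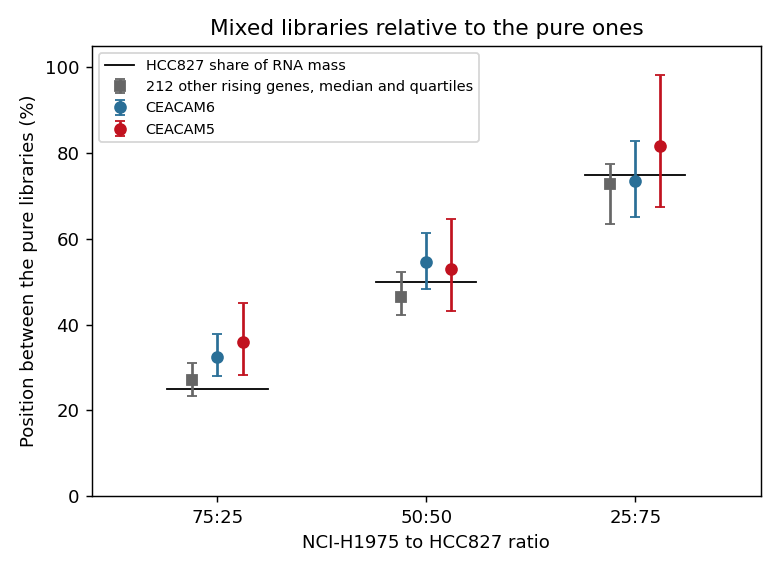
Position of the 3 mixed libraries between the pure ones, in percent, for CEACAM6, CEACAM5 and 212 other rising genes. Points of a library are set side by side; bars are 95% Poisson intervals for the members and quartiles for the other genes, and black lines mark the HCC827 mass share. CEACAM6 goes from 32.6% to 73.5% and CEACAM5 from 35.9% to 81.7%.

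In the 4 libraries with HCC827 RNA, nearly all reads of CEACAM5 and CEACAM6 came from that same RNA. Their proportion was thus set by the mixing to be alike, and its scatter is technical. CEACAM5 gave 28.5% (exact 95% interval 23.1 to 34.4) of the reads of both genes at 75:25, then 26.2% (21.9 to 30.97), 29.0% (24.5 to 33.8) and 26.9% (23.0 to 31.1) at 0:100. These 4 intervals overlap. At 100:0 the share rested on 4 reads, 0 of them from CEACAM5, with an interval up to 60.2%.

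Because members of the family resemble each other, the sequence they share was measured. The coding sequences of CEACAM5 and CEACAM6 were 91.2% identical over 951 aligned columns, CEACAM1 and CEACAM5 90.5% over 943, and CEACAM1 and CEACAM6 90.2% over 958. CEACAM7 was 84.1% identical to CEACAM1 over 684 columns, and CEACAM19 aligned to none of the others over more than 39 columns. The longest run that the coding sequences of CEACAM5 and CEACAM6 share exactly is 65 bases. It is printed in capitals from the GENCODE v44 transcripts, with 15 bases on either side in lower case, since it shows how much of a read must lie outside such a stretch to tell the genes apart. In both coding sequences it covers positions 752 to 816, counted from the start codon.
CEACAM5-201: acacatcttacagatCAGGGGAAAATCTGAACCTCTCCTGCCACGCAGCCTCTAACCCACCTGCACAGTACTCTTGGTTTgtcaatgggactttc
CEACAM6-201: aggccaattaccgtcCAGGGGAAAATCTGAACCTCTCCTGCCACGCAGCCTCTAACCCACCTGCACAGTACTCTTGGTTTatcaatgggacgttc

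Of all 31-base words in CEACAM6-201, 13.2% also occur in another CEACAM gene or in a pregnancy-specific glycoprotein gene (PSG, the sister family in the same cluster). In CEACAM5-201 the share was 11.1%, in CEACAM1-201 8.15%, in CEACAM7-201 1.46% and in CEACAM19-202 0%. Most of these words lie in the coding part, where they reached 33.7% for CEACAM6-201 and 18.1% for CEACAM5-201. No stretch of 100 bases in CEACAM5-201 or CEACAM6-201, of 3501 and 2594 bases, occurred whole in another of these genes, and the longest in CEACAM1-201 was 117 bases, shared with CEACAM3. Neighbouring stretches can match different genes, so the blocks they form together are longer. A read confined to such a stretch cannot be assigned by sequence, and read lengths are not part of the tables, so how many reads that concerns was not analysed here.

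**Figure D3:**
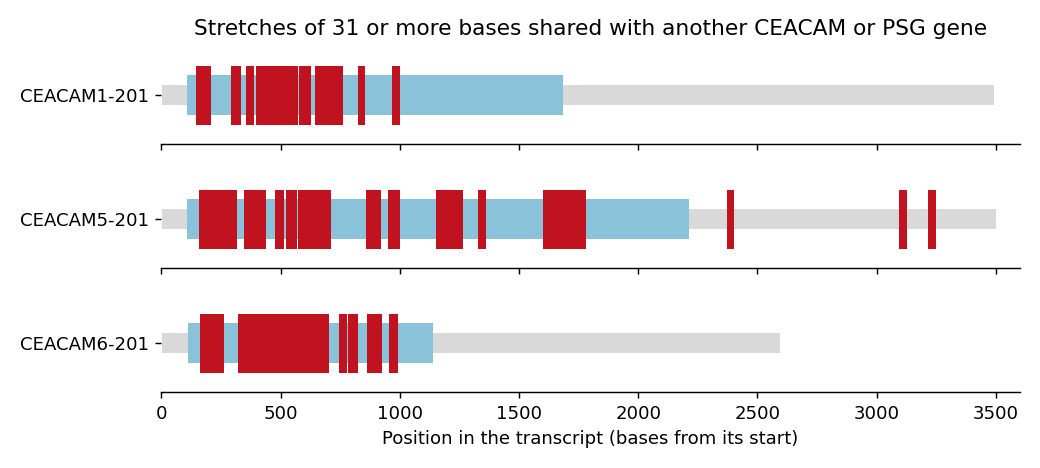
Maps of CEACAM1-201, CEACAM5-201 and CEACAM6-201, in bases from the transcript start; grey is the transcript, blue its coding part, and red the bases inside 31-base words that also occur in another CEACAM or PSG gene. Red covers 15.8%, 29.1% and 25.4% of bases and lies mostly in the coding part.

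Other genes of the family had few reads. Of 21 further CEACAM gene records, pseudogenes and an antisense gene included, 4 had any read, 30 in all, of which CEACAM16-AS1 had 14. CEACAM3, CEACAM4, CEACAM8, CEACAM16, CEACAM18 and CEACAM21 had 0 reads and CEACAM20 had 1. An unnamed protein-coding gene, ENSG00000267881, which overlaps both CEACAM5 and CEACAM6 on their strand, had 0 reads. PSG genes had 317 reads, led by PSG4 with 66, 61, 42, 17 and 0 reads along the series. PSG4 fell (slope -3.04 ± 0.62, SE; edgeR, adjusted p = 0.00154), opposite to CEACAM5 and CEACAM6, PSG5 had a slope of -0.48 that did not pass, and PSG9 had a slope of -2.47 (adjusted p = 0.0600). PSG genes are close copies of each other, so the split of reads among them is uncertain.

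CEACAM1 isoforms were read at the exon that decides its tail. This alternative exon of 53 bases lies at chr19:42511576-42511628 on the minus strand. Including it keeps open the reading frame of the long tail, and skipping it gives the short one. It is shown in capitals, as in GENCODE v44, with 15 bases of the neighbouring exons in lower case, above the junction that remains when it is skipped.
CEACAM1-201, long tail: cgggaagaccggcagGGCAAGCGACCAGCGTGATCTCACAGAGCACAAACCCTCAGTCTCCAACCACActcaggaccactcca
CEACAM1-207, short tail: cgggaagaccggcagctcaggaccactcca

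Transcripts with the exon in a complete coding sequence held 4 of 4 CEACAM1 reads at 100:0, then 14 of 18, 12 of 17, 16 of 26 and 21 of 29 at 0:100. As shares these were 100%, 77.8%, 70.6%, 61.5% and 72.4%, and the exact 95% intervals all overlap (39.8 to 100 at 100:0, 52.8 to 87.3 at 0:100). The slope was -28.6 percentage points over the series, and -10.1 without the 100:0 library and its 4 reads. The exact permutation test over the 120 orders of all 5 libraries gave a two-sided p = 0.117. A change of tail was therefore not detectable at this depth. Long-tail transcripts held 67 of 94 reads over the 5 libraries, short-tail transcripts 18, and retained-intron or partial transcripts 9.

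The long-tail reads were carried mainly by 2 transcripts. CEACAM1-201, of 526 residues, had 2, 2, 5, 9 and 11 reads, and CEACAM1-203, of 430 residues, had 2, 12, 6, 6 and 9. They differ by a 288-base coding exon for an immunoglobulin-like domain. Together with the short-tail forms, transcripts with this exon had 42 reads and those without it 40, leaving out CEACAM1-204 with its 3. CEACAM1-203 had more reads than CEACAM1-201 at 75:25 (12 and 2) and fewer at 0:100 (9 and 11), on counts too small to read as a change of isoform. The short-tail forms were CEACAM1-207 (464 residues) with 13 reads and CEACAM1-208 (368 residues) with 5, none of them in the 100:0 library. No CEACAM1 transcript had 10 reads in 2 libraries, so none entered the transcript test, and no member had enough transcripts for the usage test, in which 0.402% of 7455 genes passed. In the transcript test CEACAM5-201 and CEACAM6-201 rose with slopes of 3.06 and 3.25, where 33.6% of 31758 transcripts passed and 17.5% rose. With no read minimum, isoform usage of CEACAM1, CEACAM5 and CEACAM19 did not pass (edgeR's diffSpliceDGE across all genes, adjusted p = 1 for each), where 0.226% of 15052 genes did. That setting was added after the data were seen.

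**Figure D4:**
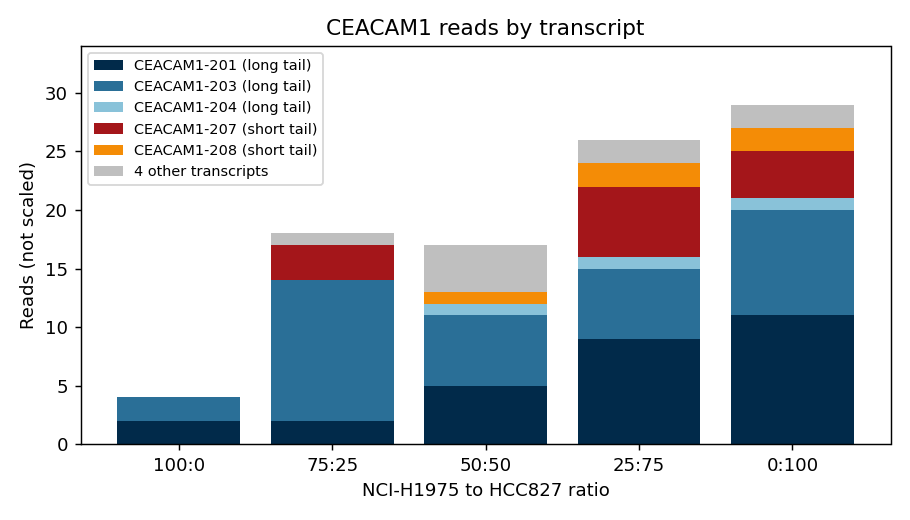
CEACAM1 reads by transcript in each library, not scaled for depth; blue shades are long-tail transcripts, red and orange short-tail ones, and grey the 4 other transcripts with reads. Totals rise from 4 to 29 reads, and short-tail reads number 0, 3, 1, 8 and 6.

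The start regions of the 3 genes that rose were compared. In a mixture of 2 RNAs any genes higher in HCC827 rise together (23.5% of all genes rose), and shared control of the 3 was not tested. The 250 bases before the RefSeq start (GRCh38.p14) are shown 5′ to 3′ on each gene's strand. Capitals mark matches, on either strand, to 4 short motifs: CACGTG (the E-box bound by USF1 and USF2), GGGCGG (the GC box of SP1), GAAA followed after a gap of 2 bases by GAAA (an interferon regulatory factor element) and TTTATG (a CDX element). They lie at chr19:41755280-41755529 (plus) for CEACAM6, chr19:41708376-41708625 (plus) for CEACAM5 and chr19:42528482-42528731 (minus) for CEACAM1.
CEACAM6: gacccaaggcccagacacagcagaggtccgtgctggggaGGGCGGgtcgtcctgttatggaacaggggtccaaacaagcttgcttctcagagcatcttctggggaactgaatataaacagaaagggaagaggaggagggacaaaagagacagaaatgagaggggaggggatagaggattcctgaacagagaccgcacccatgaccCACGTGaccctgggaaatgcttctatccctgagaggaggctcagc
CEACAM5: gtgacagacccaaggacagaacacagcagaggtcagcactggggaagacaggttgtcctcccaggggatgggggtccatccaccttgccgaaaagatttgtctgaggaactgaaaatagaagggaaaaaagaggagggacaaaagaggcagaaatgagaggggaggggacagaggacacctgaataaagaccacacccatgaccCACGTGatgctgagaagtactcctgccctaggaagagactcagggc
CEACAM1: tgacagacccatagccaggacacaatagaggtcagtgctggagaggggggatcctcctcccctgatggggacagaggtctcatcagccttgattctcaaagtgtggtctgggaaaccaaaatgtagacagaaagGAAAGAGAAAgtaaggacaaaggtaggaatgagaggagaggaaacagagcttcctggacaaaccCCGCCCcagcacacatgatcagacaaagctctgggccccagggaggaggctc

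The E-box began at -46 in CEACAM5 and -45 in CEACAM6 relative to the start, and neither CEACAM1 nor CEACAM7 held it. It occurs in 6.34% of 35116 such windows. CEACAM1 held the interferon regulatory factor letters at -116, which occur in 3.02% of windows, and the GC box at -52. The GC box, also at -211 in CEACAM6, occurs in 42.6%, and the CDX letters (9.64% of windows) were in none of the 4. No motif match overlapped another. The windows of CEACAM5 and CEACAM6 were 75.9% identical over 249 aligned columns, while those of CEACAM5 and CEACAM7, which had no reads, were 82.3% identical over 249. CEACAM19 had no entry among the promoters.

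Genes tied to CEACAM biology were taken from 4 lists. Of 10 transcription factors described for CEACAM promoters, 8 were tested, 2 rose and 0 fell, with a median slope of 0.056, where 23.5% of all genes rose and 22.3% fell. KLF5 rose by 1.52 ± 0.28 (SE; edgeR, adjusted p = 7.24e-04), from 52 to 165 reads. USF2, which binds the E-box, rose by 0.72 ± 0.14 but did not pass when scaled by library totals (slope 0.31, adjusted p = 0.0788). USF1 (slope -0.37), SP1 (-0.09) and IRF1 (0.049) did not pass, SP3 passed as a fall under library totals (adjusted p = 0.00697), and CDX1 and CDX2 had too few reads.

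Among 6 factors described for splicing of the CEACAM1 tail exon, 5 rose and 0 fell, with a median slope of 0.79, against the same 23.5% and 22.3% of all genes (1813 and 5074 of 13492 genes under library totals). HNRNPA1 rose by 1.204 ± 0.13 and ESRP1, an epithelial splicing regulator, by 1.09 ± 0.14 (SE; edgeR, adjusted p = 1.36e-05 and 5.88e-05). HNRNPA1 has many processed copies in the genome, so its reads are uncertain. HNRNPM had a slope of -0.28 that did not pass under TMM, and it passed as a fall under library totals (slope -0.69, adjusted p = 0.0210). Under the same scaling ESRP2 did not pass (adjusted p = 0.178).

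Of 18 binding and signalling partners of CEACAM1, 16 were tested, 5 rose, 8 fell and 3 did not pass, with a median slope of -0.24, where 45.8% of all genes passed, 23.5% rising and 22.3% falling. Under library totals CALM2 did not pass and LYN and FLNA passed as falls. EGFR rose most, from 315 to 2582 reads (slope 2.96). PTPN6, the tyrosine phosphatase recruited by the long tail, rose by 1.46 ± 0.29 (SE; edgeR, adjusted p = 0.00122), from 33 to 84 reads. Its relative PTPN11 fell, with a slope of -0.82. The largest falls were those of the integrin subunits ITGB3 (122 reads to 1, slope -2.996) and ITGA5 (342 to 73, slope -1.62).

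Of 9 genes that attach or remodel GPI anchors, 8 were tested, 1 rose, 1 fell and 6 did not pass, where 45.8% of all genes passed, with a median slope of 0.26 (-0.14 under library totals). The rise was PGAP3 (16 to 63 reads, slope 2.05 ± 0.39), which overlaps ERBB2 on the opposite strand, and the fall PGAP1 (43 to 6 reads, slope -1.97 ± 0.45), both enzymes that remodel the anchor. The transamidase subunits PIGK, PIGS, PIGT, PIGU and GPAA1 had slopes from -0.098 to 0.46, and 0 of the 5 passed.

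Few neighbours of the members were expressed. Within 100 kb, 6 genes were tested, of which 2 rose, 1 fell and 3 did not pass, where 45.8% of all genes passed. RPS19, a ribosomal protein gene near CEACAM6, rose by 2.18 ± 0.16 (SE; edgeR, adjusted p = 2.35e-06), from 3077 to 11678 reads. CBLC, near CEACAM19, rose by 1.53, opposite to CEACAM19, and PVR fell. RPS19 has processed copies elsewhere, so its reads are uncertain.

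The genes whose pattern was closest to CEACAM6 were sought over the 5 libraries, as the Euclidean distance between mean-centred log2(TMM-scaled CPM + 0.5). FA2H was closest (distance 0.20, with 3, 170, 267, 274 and 335 reads), then GNG4 (0.24) and NAPSA (0.32). For CEACAM5 the closest were FA2H (0.24), KCNK1 (0.35) and CASC9 (0.36). CEACAM5 and CEACAM6 were 0.37 apart, with 3 of 13492 genes closer to CEACAM5 and 8 closer to CEACAM6. All points share the same 5 libraries, and any gene nearly absent from NCI-H1975 RNA follows this course.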

How the data were processed

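Long-read cDNA of 5 mixtures of NCI-H1975 and HCC827 RNA was analysed, 1 library each. The authors deposited 1 table per library of estimated counts of reads per transcript, unscaled. The submitters' processing notes name minimap2 2.24, Salmon 1.9.0 and GRCh38; settings and annotation release are not given in the sources used here. The 2 values that were not whole were rounded, and 161 identifiers listed more than once were summed (0 of them in the members). GENCODE v44 gave the genes; 3675 of 227751 human transcripts had no gene there, and CEACAM1-215 was not in the tables.

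Counts were tested with edgeR 4.0.16 (R 4.3.3), quasi-likelihood slope on the HCC827 mass fraction, TMM scaling, at least 10 reads in at least 2 libraries, Benjamini-Hochberg threshold 0.05. DESeq2 1.42.0 and limma 3.58.1 were alternatives. Each standard error was taken from the slope and its F statistic. The slope test and the estimate of the read share were tested on simulated data. Intervals are exact, at 95%, and with the floor of 3 reads for a count of 0 cover counting error only, since PCR copies carry no identifiers. For folds this floor replaced counts of 0 only, and an alternative floor of 10 reads replaced every smaller count. Usage within the members could not be tested at the planned read minimum. Named genes were all members, other CEACAM and PSG genes, and of 4 lists at most 2 rises and 2 falls past the threshold, with a few others named after their values were seen; neighbours, close patterns and marker lists followed fixed rules. One marker gene is not reported here. Members and lists were chosen with earlier results of these data known.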

Additional observations from a re-analysis of the deposited data

How the results depend on the processing

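Of the alternatives that gave a value, CEACAM1 kept its direction and call in 12 of 13, CEACAM5 in 12 of 14 and CEACAM6 in 13 of 14. CEACAM19 could be fitted only where the libraries in which it is high, and all its transcripts, were kept, so its count of kept calls is not given. No fitted slope changed sign. Slopes ranged from 1.81 to 3.09, 2.00 to 4.49, 2.06 to 4.34 and -3.98 to -2.94, and adjusted p reached 0.0538, 0.153, 0.0948 and 0.0482. The number of members called moved from 4, where 45.8% of all genes passed, to 1 in the 2 against 2 comparison (17.3%). That 1 was CEACAM19, whose call is no support there. The number was 2 when only the most-read transcript of each member was counted, where 6174 of 13490 genes passed. This left CEACAM1 and CEACAM19 too few reads. Fits that left out 1 library called every member they could test, from 3 to 4. Of all genes they called from 4067 of 13352 without 0:100 to 5860 of 13251 without 50:50. At 10 reads in every library no member could be tested. The 2 transcripts called became 0 under DESeq2's Wald test (where 19.1% of transcripts passed) and 0 in the 2 against 2 comparison (14.4%), with slopes still positive; the cause was not tested. The tail share of CEACAM1 kept a negative slope without 1 library each, from -49.0 percentage points without 0:100 to -10.1 without 100:0. The position of CEACAM6 at 75:25 was 7.57 percentage points above the mass share on the TMM scale and 14.9 under library totals (for CEACAM5 10.9 and 18.96). Against the 32.7% of unscaled reads estimated for HCC827 from 10017 other genes, CEACAM6 was 7.19 above under library totals and CEACAM5 11.3. The TMM positions less that share were -0.094 and 3.27, which mixes scales. At 50:50 CEACAM6 went from 4.53 above the mass share to 13.02 under library totals, where it was 7.61 above the estimated read share of 55.4%. With words of 100 bases the shared part fell to 0.531% for CEACAM1-201, 0.586% for CEACAM1-203 and 0% for CEACAM5-201, CEACAM6-201 and CEACAM7-201, since longer words are shared less often. Between the pure libraries the CEACAM5 fold was 16.4 with a floor of 10 reads and 41.1 under library totals. The same floor of 10 took CEACAM1 from 9.15 to 3.66 and CEACAM6 from 111 to 44.6. CEACAM19 turned from 0.105 to 1.05 with a floor of 10 reads, which replaces its single read. No paired analysis was possible because each ratio had 1 library. Depth limits CEACAM1 isoforms, CEACAM19 and CEACAM7.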
